A study of Mus musculus with 12 samples.

Results

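The genes described here build the contractile lattice of striated muscle. They comprise 37 structural genes of the sarcomere, Z-disc, M-band and desmin network, taken by gene symbol from the count table. The symbols were listed by function and no value entered the rule, but the list was drawn up with earlier results of these data known. All 37 passed the filter on low counts, out of 15542 genes that did so and 49492 rows in the table. They were measured by RNA sequencing of polyadenylated RNA of the left ventricle of mice, with 12 libraries that cross genotype with treatment in 4 groups of 3. WT_NS and WT_TAC are wild type, and Alox5ko_NS and Alox5ko_TAC carry the knockout of Alox5, the gene of arachidonate 5-lipoxygenase. TAC stands for transverse aortic constriction, surgery that tightens the aorta so that the left ventricle pumps against pressure. NS is left without a long form in the labels and serves here as the name of the groups without TAC. The design text speaks of a cardiac deficiency of Alox5, but the labels give only the genotype, with no strain, age, sex, promoter or Cre line, and no time after the operation. Whether the 3 libraries of a group are separate animals is not stated either, and the p-values then reflect only how far these samples differ, which may be technical.

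A sarcomere is the repeating unit of the myofibril. Thick filaments of myosin, held at the centre by the M-band, slide past thin filaments of actin, tropomyosin and troponin, which are anchored at the Z-disc. Titin spans from Z-disc to M-band as a molecular spring, and desmin filaments tie neighbouring Z-discs to each other and to the cell membrane. The Z-disc is also a site where mechanical load is sensed, and its proteins are known to be rearranged in pressure-overloaded hearts.

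Library totals ran from 20889431 to 27311196 counts. Alox5 stood at 9.56 CPM (counts relative to the library total, scaled with the TMM factors of edgeR) or more in all 6 wild-type libraries and at 1.46 CPM or less in all 6 knockout libraries. The 37 genes took 10.88% ± 0.185 of all counts in WT_NS, 11.65% ± 0.202 in WT_TAC, 10.54% ± 0.174 in Alox5ko_NS and 11.53% ± 0.769 in Alox5ko_TAC (SD, n = 3). Mitochondrially encoded genes took 16.46% to 18.06% of counts in WT_NS and 15.74% to 17.29% in WT_TAC, with overlap, and 18.2% to 21.42% in Alox5ko_NS and 14.56% to 16.77% in Alox5ko_TAC, without overlap. Their part in the share of the 37 genes was not tested. Markers of heart muscle cells outside the sarcomere, 15 of 15 tested, summed to 34320 to 35560 CPM in WT_NS and 31890 to 35380 CPM in WT_TAC. They summed to 37500 to 38370 CPM in Alox5ko_NS, without overlap with WT_NS or with the 35330 to 37090 CPM in Alox5ko_TAC. Markers of skeletal muscle summed to at most 10.1 CPM, with 5 of 13 tested and Myod1 at 0 in every library. Genes of pressure overload (Nppa, Nppb, Myh7, Acta1, Ankrd1 and Xirp2) summed to 4392 to 6306 CPM in the 6 NS libraries, 12470, 9418 and 7754 CPM in WT_TAC 1, 2 and 3, and 13720, 7421 and 13910 CPM in Alox5ko_TAC 1, 2 and 3. In that sum Alox5ko_TAC 2 lay below the other knockout TAC libraries and close to WT_TAC 3, but single genes differed. In Alox5ko_TAC 2 and WT_TAC 3, Nppa had 278.3 and 623.1 CPM (272.3 CPM in WT_NS 1). Acta1 had 277.6 and 494 CPM (312.5 CPM in WT_NS 2). Myh7 had 2489 and 2930 CPM and Xirp2 had 1099 and 1184 CPM, while Ankrd1 went the other way, with 3010 and 2358 CPM. Nppb is not listed singly. What the other genes leave of the sums for Nppb was larger in Alox5ko_TAC 2 than in WT_TAC 3, so it went the other way too. Among the 37 genes Alox5ko_TAC 2 stood apart from all other TAC libraries. Over the 37, the median difference in log2 CPM from the NS libraries of the same genotype was 0.43, 0.02 and 0.30 in Alox5ko_TAC 1, 2 and 3, and 0.32, 0.27 and 0.22 in WT_TAC 1, 2 and 3. Calls that turn on Alox5ko_TAC 2 are given with and without it. It was set apart by its low values in these same genes. Higher estimates and added calls without it follow from that choice and are not taken as support. In bulk tissue, fewer cells of a type and less RNA per cell cannot be told apart. That limit holds for every level below.

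Levels of different genes can be set side by side only per length, and here that is the deposited RPKM (reads relative to gene length and library total), which rests on the gene length in the authors' table. On that scale the thin filament and the myosin light chains led. The troponin T gene Tnnt2 had a median of 5223 RPKM over the 12 libraries, the troponin C gene Tnnc1 3991 RPKM, the essential light chain gene Myl3 3591 RPKM and the tropomyosin gene Tpm1 2901 RPKM. Titin, Ttn, whose deposited length is 116825 bases, was at 30.9 RPKM and ranked 31 of 37. At the low end stood the LIM-domain gene Fhl1 with 6.74 RPKM, the PDZ and LIM gene Pdlim3 with 1.33 RPKM and the third myomesin gene Myom3 with 0.509 RPKM.

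The genes also differed in how far their levels spread over the 12 libraries. The highest library exceeded the lowest by 1.08 times for Tnnt2 and 1.13 times for Tpm1 in CPM. In CPM the same ratio was 4.05 for Synpo2l, 3.58 for Myot, 3.14 for Flnc, 3.01 for Xirp1 and 2.40 for Nrap, all of them Z-disc genes. The heat map of the 37 genes by library gives every level against the mean of WT_NS.

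**Figure D1:**
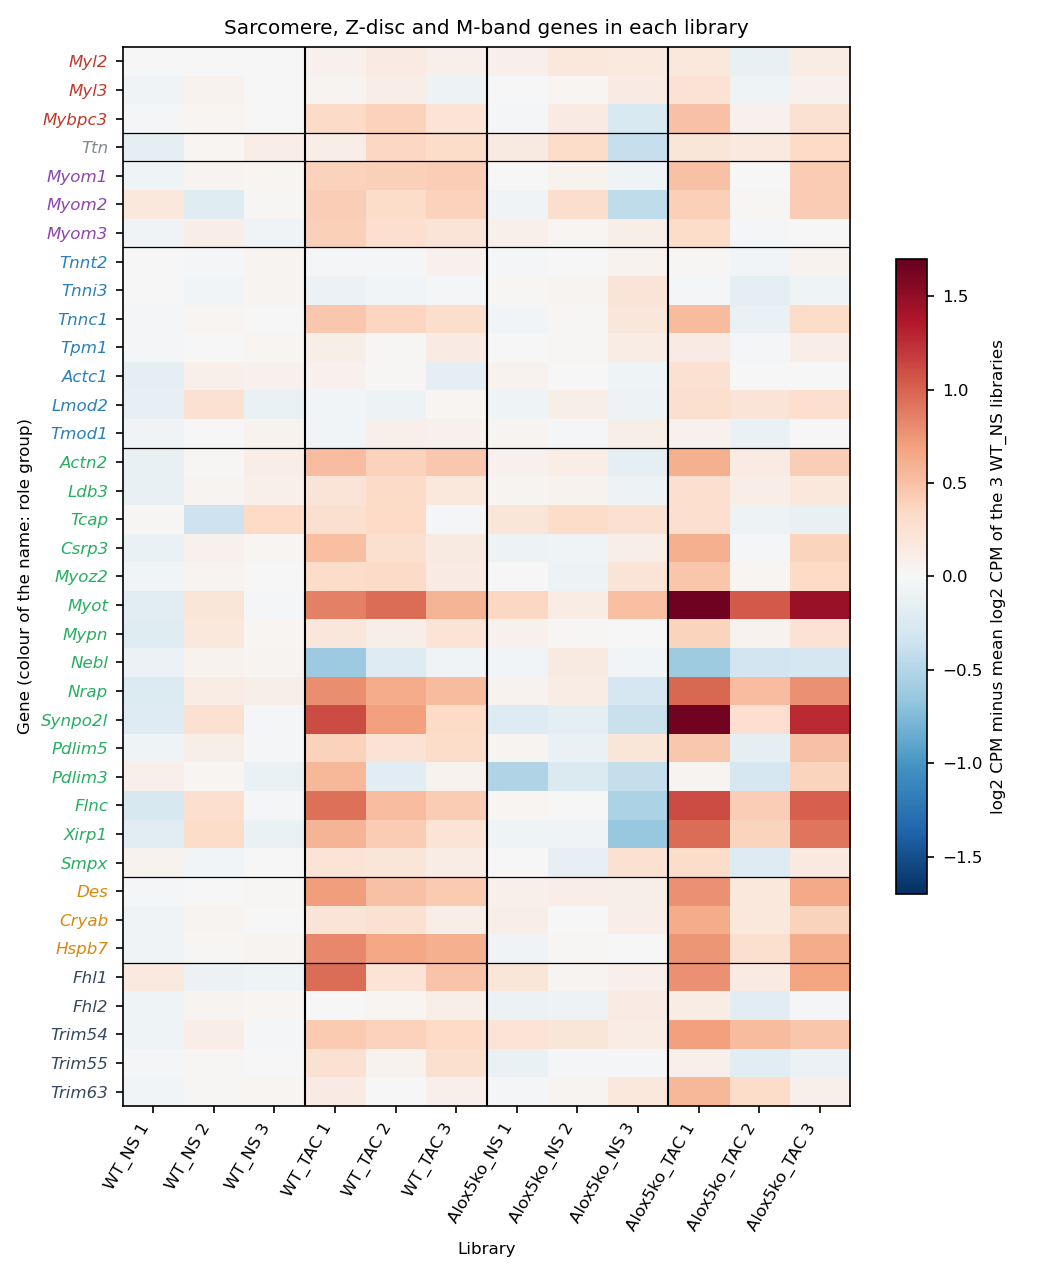
Heat map of log2 CPM of each of the 37 genes (rows, by role) in the 12 libraries (columns, by group), as the difference from the mean log2 CPM of the 3 WT_NS libraries; red is higher and blue lower. Most Z-disc and desmin rows are red in the TAC columns with Nebl blue, most thin filament rows are near white, and Alox5ko_TAC 2 is paler than Alox5ko_TAC 1 and 3.

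TAC was first taken as the average of the wild-type and knockout responses, which uses all 12 libraries. In that comparison 17 of the 37 genes were called (45.9%), against 5.1% of all genes tested. Of the 17, 16 rose, against 2.9% of all genes, and 1, the nebulette gene Nebl, fell, against 2.19% of all genes. The median over the 37 genes was 0.25 on the log2 scale, against 0.0007 over all genes tested. High level alone goes with more calls: of 1029 genes with a mean of at least 100 CPM, 12.1% were called, while 15 of the 32 listed genes at that level were called (46.9%).

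Roles differed in their counts. In the desmin network 3 of 3 genes rose, with a median of 0.51. At the Z-disc 9 of 15 rose and 1 fell, with a median of 0.31. Of the titin-associated genes 2 of 5 rose, with a median of 0.17. In the M-band 1 of 3 rose (Myom1), with a median of 0.35, and in the thick filament 1 of 3 rose (Mybpc3), with a median of 0.03. Titin itself was not called, at 0.22 (95% interval 0.0044 to 0.44, adjusted p = 0.249). Without the low-count filter it was called, as were 4.74% of all genes. In the thin filament 0 of 7 genes were called by edgeR, with a median of 0.04. An unadjusted p under 0.05 was seen for 2 of these 7 and for 2999 of all 15542 genes. DESeq2 called 1 of the 7, 2 of the 3 M-band genes and 6.1% of all genes. No test was made between the roles, whose members were chosen and not drawn at random. The filament roles hold no myosin heavy chain gene and not the actin gene Acta1, which were listed among the related genes below. In wild type and knockout Myh6 gave 0.06 and 0.13, Myh7 0.58 and 0.49, and Myh7b -0.04 and 0.105. Acta1 gave 2.15 and 2.64. None of these was called within either genotype, but the role counts above are for the average, where more genes pass. In the average the 6 pressure-overload genes ran from 0.53 for Myh7 to 2.40 for Acta1, and 4 of the 6 were called.

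**Figure D2:**
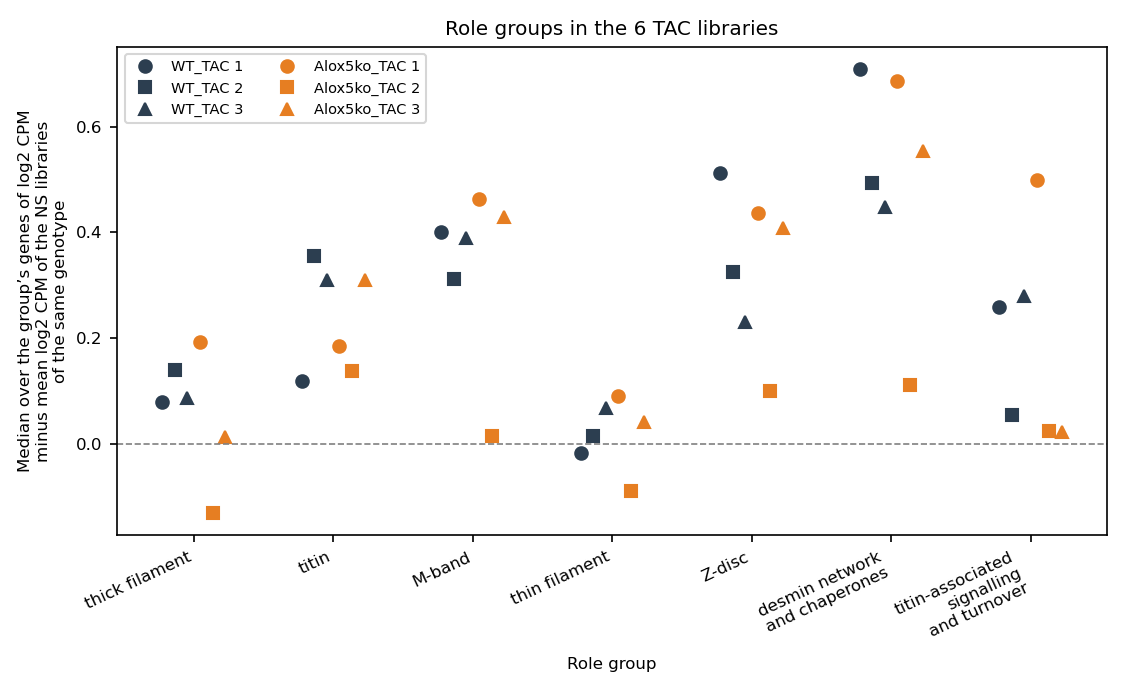
For each role (horizontal), 1 point per TAC library gives the median over the role's genes of log2 CPM minus the mean log2 CPM of the NS libraries of the same genotype (vertical). The desmin network runs from 0.11 to 0.71 and the Z-disc from 0.10 to 0.51, the thin filament from -0.09 to 0.09, and Alox5ko_TAC 2 is lowest or next to lowest in each of the 7 roles.

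**Figure D3:**
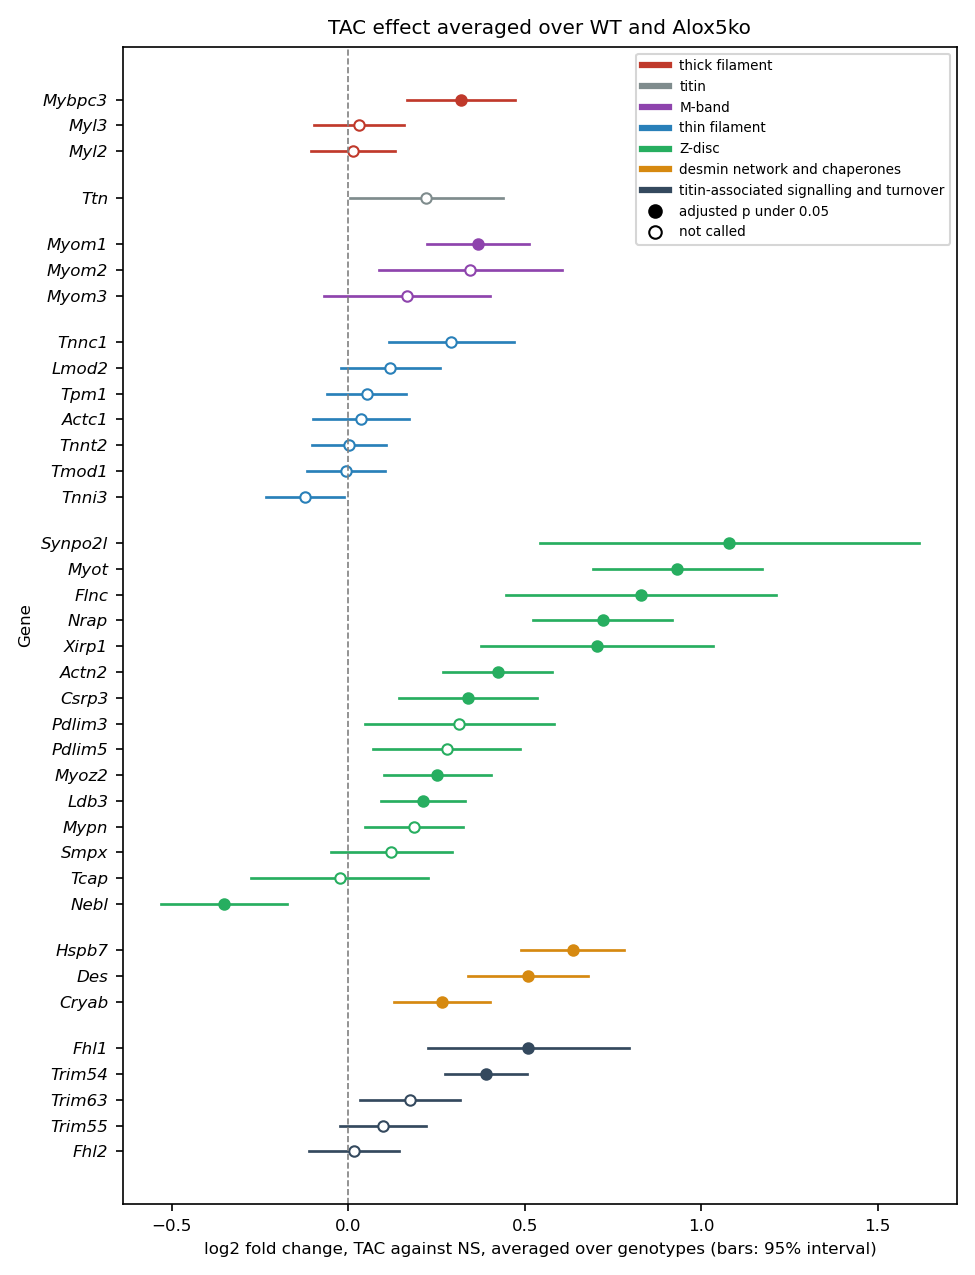
Log2 fold change of each of the 37 genes with TAC averaged over genotypes, with its 95% interval, ordered within role; filled points passed an adjusted p of 0.05 by edgeR's quasi-likelihood test. The 17 filled points include 10 of the Z-disc and none of the thin filament.

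The promoters of these genes were read for features that the choice of the genes did not use. RefSeq windows of GRCm38.p6 matched 31 of the 37 genes, with 43 windows, since some genes have several starts and some windows of 1 gene overlap. The 250 bases before each start were searched on both strands for a MEF2 site and a CArG box (the site of serum response factor), for the M-CAT motif CATTCC, the GATA box AGATAA and the TATA box TATAAA. A CArG box was in 20.9% of the windows of these genes and in 1.47% of all 32851 windows. A MEF2 site was in 16.3% and 2.92%, the M-CAT motif in 25.6% and 12.6%, the GATA box in 16.3% and 9.99%, and the TATA box in 14% and 12.4%. Of the 43 windows, 22 belong to genes called with TAC and 21 to genes not called. In these, in that order, the CArG box was in 22.7% and 19.0% and the MEF2 site in 18.2% and 14.3%. The M-CAT motif was in 13.6% and 38.1%, the GATA box in 13.6% and 19.0%, and the TATA box in 4.55% and 23.8%. These are descriptions of letters, and no test was made.

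The following stretches of 120 bases, 5′ to 3′ on the gene's strand, show the motifs in capitals in genes that rose with TAC and in genes that did not. Mybpc3 (chr2:91118024-91118143), Myoz2 (chr3:123034988-123035107) and Synpo2l (chr14:20668355-20668474) rose and hold a MEF2 site. Myom1 (chr17:71019437-71019556, which also holds a GATA box on the other strand) and Ldb3 (chr14:34588682-34588801) rose and hold a CArG box. Actc1 (chr2:114052876-114052995) was not called and holds a CArG box, and Tnnt2 (chr1:135836214-135836333) was not called and holds the M-CAT motif. These are examples, and other genes differ. Ttn, Myom3 and Fhl2 were not called and also hold a MEF2 site in the bases searched. Nebl, Flnc and Trim54 were called and hold the M-CAT motif there. Hspb7 (chr4:141420659-141420778), with the smallest adjusted p, holds none of the 5 in this stretch.
Mybpc3: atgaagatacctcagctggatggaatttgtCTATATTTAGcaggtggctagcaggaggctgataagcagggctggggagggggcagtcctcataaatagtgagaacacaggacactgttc
Myoz2: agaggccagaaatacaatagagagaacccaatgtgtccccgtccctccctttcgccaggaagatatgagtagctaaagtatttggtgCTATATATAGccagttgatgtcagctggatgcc
Synpo2l: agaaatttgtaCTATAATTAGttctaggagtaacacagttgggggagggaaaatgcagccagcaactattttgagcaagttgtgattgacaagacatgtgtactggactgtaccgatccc
Myom1: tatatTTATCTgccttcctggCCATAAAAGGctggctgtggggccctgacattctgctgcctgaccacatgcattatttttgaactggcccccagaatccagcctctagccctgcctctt
Ldb3: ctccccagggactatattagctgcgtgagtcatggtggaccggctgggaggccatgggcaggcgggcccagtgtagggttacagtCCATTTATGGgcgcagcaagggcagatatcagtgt
Actc1: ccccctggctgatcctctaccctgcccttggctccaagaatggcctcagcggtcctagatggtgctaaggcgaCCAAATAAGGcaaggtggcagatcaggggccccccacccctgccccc
Tnnt2: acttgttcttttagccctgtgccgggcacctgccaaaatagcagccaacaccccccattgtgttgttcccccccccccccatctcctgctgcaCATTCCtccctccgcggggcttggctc
Hspb7: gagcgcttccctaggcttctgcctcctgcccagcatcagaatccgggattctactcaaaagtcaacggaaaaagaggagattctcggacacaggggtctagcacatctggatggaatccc

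In the desmin network every gene rose. Des encodes desmin, the intermediate filament that links Z-discs (chromosome 1, 75360329 to 75368579 in GRCm38). Its level was 1823, 1840.1 and 1867 CPM in WT_NS against 3014, 2596 and 2514 CPM in WT_TAC. In the knockout it was 1952, 1987 and 1966 CPM in Alox5ko_NS against 3170.1, 2081 and 2889.7 CPM in Alox5ko_TAC. Every TAC library lay above every NS library of its genotype, and Alox5ko_TAC 2 was the lowest of the TAC libraries. Des rose by 0.51 on the log2 scale (SE 0.0809, 95% interval 0.34 to 0.68, adjusted p = 0.00171).

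Hspb7, a small heat shock protein of heart muscle that binds filamin C (chromosome 4, 141420779 to 141425311), had the smallest adjusted p of the 37. Hspb7 stood at 2281, 2427 and 2455 CPM in WT_NS against 4218, 3747 and 3639 CPM in WT_TAC. The knockout libraries had 2280.4, 2423 and 2406 CPM in Alox5ko_NS against 4015, 2892 and 3695 CPM in Alox5ko_TAC. The groups did not overlap in either genotype, and the lowest TAC library, Alox5ko_TAC 2, exceeded the highest NS library. Hspb7 rose by 0.64 on the log2 scale (SE 0.0698, 95% interval 0.49 to 0.78, adjusted p = 9.9e-05).

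Cryab encodes alphaB-crystallin, a chaperone of desmin and titin. Wild type had 724, 785 and 764 CPM in WT_NS against 878, 904 and 821 CPM in WT_TAC, and the knockout had 809, 760.1 and 821 CPM in Alox5ko_NS against 1169, 859 and 989 CPM in Alox5ko_TAC. The TAC libraries were above the NS libraries in both genotypes, by a narrow margin in Alox5ko_TAC 2. Cryab rose by 0.27 on the log2 scale (SE 0.0651, 95% interval 0.13 to 0.40, adjusted p = 0.0214). This call was lost without WT_NS 1, WT_NS 3, WT_TAC 2, Alox5ko_NS 2 or Alox5ko_TAC 1 (adjusted p at most 0.0612). Smooth muscle also makes desmin and filamin C, and its 12 markers summed to 1039 to 1102 CPM in WT_NS, 950.7 to 1147 CPM in WT_TAC, 732.4 to 957.7 CPM in Alox5ko_NS, then 807.1 to 909.1 CPM in Alox5ko_TAC. Those ranges overlapped between TAC and NS in both genotypes.

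At the Z-disc, Synpo2l had the largest fold change of the 15 genes. It encodes a synaptopodin-like protein. Its wild-type levels were 114, 158 and 129.8 CPM in WT_NS against 287, 215 and 168 CPM in WT_TAC. Its knockout levels were 114, 118 and 102 CPM in Alox5ko_NS against 414, 161 and 318 CPM in Alox5ko_TAC. The groups did not overlap, but the TAC libraries were far apart from each other, with Alox5ko_TAC 2 below WT_TAC 3. Synpo2l rose by 1.08 on the log2 scale (SE 0.235, 95% interval 0.54 to 1.62, adjusted p = 0.0375). Its call stayed only without WT_TAC 3 or Alox5ko_TAC 2 of the 12 fits that left out 1 library, with adjusted p up to 0.0998 in the other fits.

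Myot encodes myotilin, which crosslinks actin at the Z-disc (chromosome 18, 44334074 to 44355724). Myot had 22.4, 29.6 and 25.1 CPM in WT_NS against 46, 49.1 and 38.1 CPM in WT_TAC. In the knockout it had 32.5, 27.8 and 36.4 CPM in Alox5ko_NS against 80.1, 52.7 and 70.7 CPM in Alox5ko_TAC. Every TAC library was above every NS library, across genotypes too. Myot rose by 0.93 on the log2 scale (SE 0.111, 95% interval 0.69 to 1.17, adjusted p = 0.000709).

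Flnc encodes filamin C, an actin crosslinker between Z-disc and membrane. Levels of Flnc were 250.4, 367 and 297 CPM in WT_NS against 574, 432 and 405 CPM in WT_TAC, and 307, 298 and 207 CPM in Alox5ko_NS against 651, 404 and 608 CPM in Alox5ko_TAC. All TAC libraries exceeded all NS libraries. Flnc rose by 0.83 on the log2 scale (SE 0.169, 95% interval 0.45 to 1.21, adjusted p = 0.0251). Without WT_NS 1, WT_NS 3, WT_TAC 1, Alox5ko_NS 2, Alox5ko_TAC 1 or Alox5ko_TAC 3 it did not pass (adjusted p at most 0.0713).

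Xirp1 encodes Xin, an actin-binding repeat protein that interacts with filamin C. Xirp1 had 176, 249 and 186 CPM in WT_NS against 299.9, 271 and 236 CPM in WT_TAC. It had 190.4, 193 and 129 CPM in Alox5ko_NS against 389, 262 and 378 CPM in Alox5ko_TAC. The wild-type groups overlapped through WT_NS 2 and WT_TAC 3, while the knockout groups did not. Xirp1 rose by 0.70 on the log2 scale (SE 0.147, 95% interval 0.38 to 1.03, adjusted p = 0.0248), a call lost without WT_NS 1, WT_NS 3, WT_TAC 1, Alox5ko_TAC 1 or Alox5ko_TAC 3 (adjusted p at most 0.0706).

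Nrap, the nebulin-related anchoring protein of nascent myofibrils and the intercalated disc (chromosome 19, 56320035 to 56390037), had 611, 784 and 769 CPM in WT_NS against 1238, 1105 and 1039.6 CPM in WT_TAC. The knockout had 747, 782 and 587 CPM in Alox5ko_NS against 1412, 1033 and 1231 CPM in Alox5ko_TAC. No TAC library fell within the NS range of either genotype. Nrap rose by 0.72 on the log2 scale (SE 0.0928, 95% interval 0.52 to 0.92, adjusted p = 0.000709). Exons of Nrap overlap those of Gm17197 and Habp2 on the opposite strand, which had 6.52% and 2.56% of its counts. Both rose too, by 0.72 (adjusted p = 0.000709) and 0.64 (adjusted p = 0.00655). The libraries are directional, but how strand was used in counting is not given in the sources used here, so the counts of these genes are not taken as separate.

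**Figure D4:**
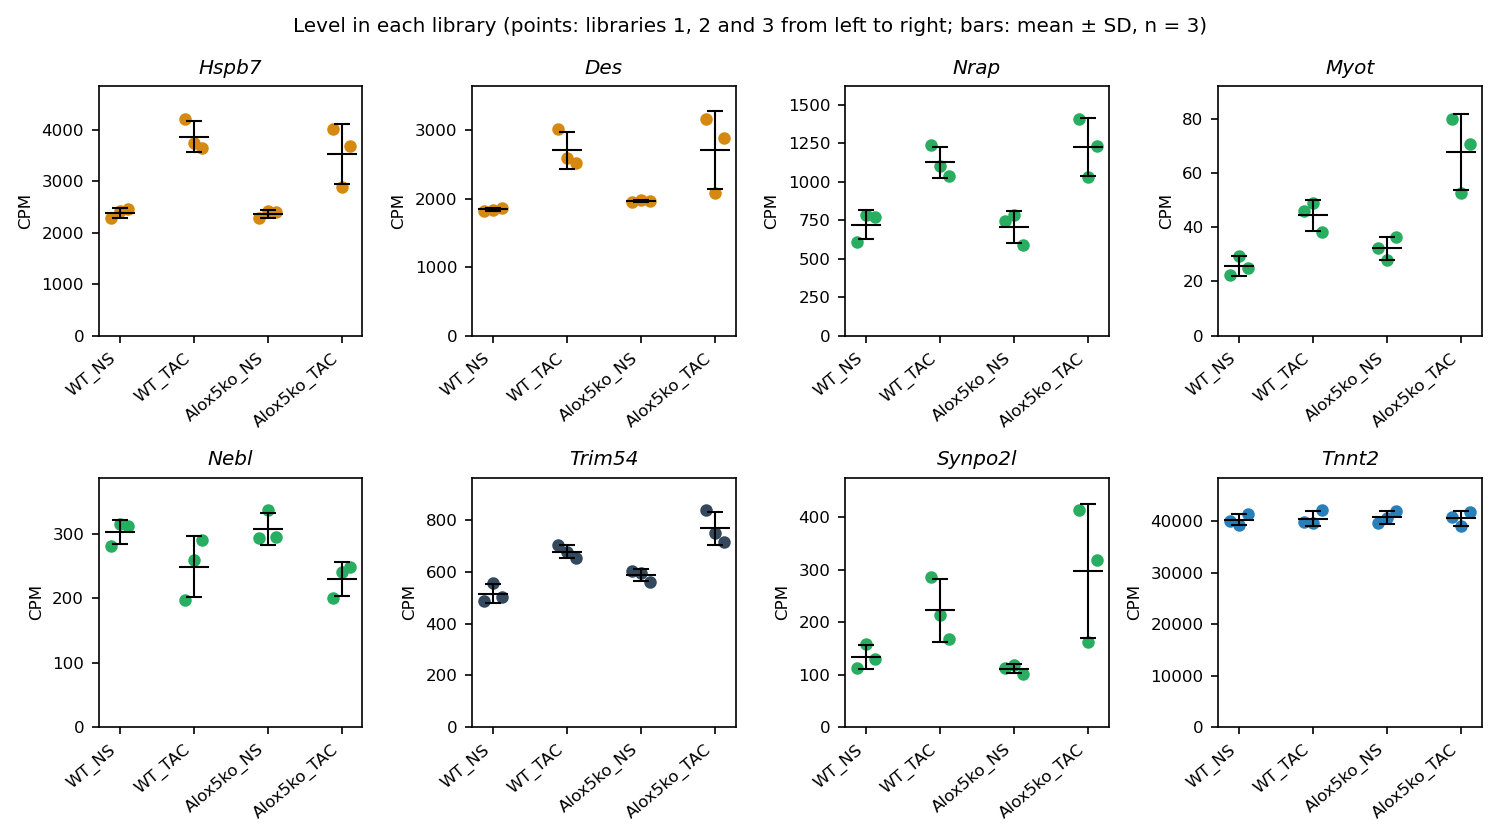
CPM in each of the 12 libraries for 8 of the genes, by group, with 1 point per library and bars for mean ± SD (n = 3); each axis starts at 0. Hspb7, Des, Nrap, Myot, Trim54 and Synpo2l separate TAC from NS in both genotypes, Nebl was lower with TAC though its wild-type groups overlapped, and Tnnt2 stays within 39102 to 42224 CPM.

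Actn2 encodes alpha-actinin, the main crosslinker of actin at the Z-disc. It had 2026, 2250.4 and 2386 CPM in WT_NS against 3195, 2913 and 3041 CPM in WT_TAC. The knockout libraries held 2329, 2392 and 1988 CPM in Alox5ko_NS against 3375, 2445 and 2959 CPM in Alox5ko_TAC. The groups did not overlap, although Alox5ko_TAC 2 was only just above the highest NS library. Actn2 rose by 0.42 on the log2 scale (SE 0.0736, 95% interval 0.27 to 0.58, adjusted p = 0.00261). Ldb3 encodes ZASP (Cypher), which binds alpha-actinin. Ldb3 had 418, 472 and 486 CPM in WT_NS against 533, 572 and 519 CPM in WT_TAC, and 473, 479 and 429 CPM in Alox5ko_NS against 556, 493 and 517 CPM in Alox5ko_TAC. All 6 TAC libraries were above all 6 NS libraries. Ldb3 rose by 0.21 on the log2 scale (SE 0.057, 95% interval 0.09 to 0.33, adjusted p = 0.0365). Without 1 library this call was kept only if that library was WT_TAC 3, Alox5ko_NS 2 or Alox5ko_TAC 2, and the adjusted p reached 0.106 in the other fits.

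Csrp3 encodes the muscle LIM protein, a Z-disc protein tied to the stretch response. Csrp3 had 526, 597 and 582 CPM in WT_NS against 810.4, 684 and 633 CPM in WT_TAC. It stood at 536, 544 and 608 CPM in Alox5ko_NS against 865, 560.4 and 738 CPM in Alox5ko_TAC. The knockout groups overlapped, since Alox5ko_TAC 2 lay below Alox5ko_NS 3. Csrp3 rose by 0.34 on the log2 scale (SE 0.0914, 95% interval 0.14 to 0.53, adjusted p = 0.045), and leaving out 1 library kept the call only for WT_TAC 3 and Alox5ko_TAC 2 (adjusted p up to 0.105 otherwise). Myoz2 encodes calsarcin-1, which tethers calcineurin to alpha-actinin. Its levels were 853, 911 and 889.6 CPM in WT_NS against 1102, 1107 and 969 CPM in WT_TAC, and 877, 834 and 1031 CPM in Alox5ko_NS against 1222, 904 and 1118 CPM in Alox5ko_TAC. Again Alox5ko_TAC 2 lay within the NS range, here below Alox5ko_NS 3. Myoz2 rose by 0.25 on the log2 scale (SE 0.0722, 95% interval 0.10 to 0.40, adjusted p = 0.0491), and the call was kept only without WT_TAC 3, Alox5ko_NS 3 or Alox5ko_TAC 2 (adjusted p up to 0.124 otherwise).

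Nebl alone was called lower. It encodes nebulette, the heart's short relative of nebulin at the Z-disc (chromosome 2, 17343909 to 17731464). Nebl had 281, 315 and 313 CPM in WT_NS against 197, 259 and 291 CPM in WT_TAC. In the knockout it had 293, 337 and 294 CPM in Alox5ko_NS against 199.6, 241 and 249 CPM in Alox5ko_TAC. The knockout groups did not overlap, but WT_TAC 3 lay within the range of WT_NS. Nebl had a fold change of -0.35 on the log2 scale (SE 0.0845, 95% interval -0.53 to -0.17, adjusted p = 0.0229). The call was lost without WT_NS 2, WT_NS 3, Alox5ko_NS 2, Alox5ko_NS 3 or Alox5ko_TAC 1 (adjusted p at most 0.0645).

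For 5 Z-disc genes there was no call with TAC averaged over genotypes. The palladin-family gene Mypn had 0.19 (95% interval 0.05 to 0.32, adjusted p = 0.117). Pdlim5 (Enigma homolog) had 0.28 (95% interval 0.07 to 0.49, adjusted p = 0.122), and its relative Pdlim3 (ALP) had 0.31 (95% interval 0.05 to 0.58, adjusted p = 0.177). Smpx, a small stretch-responsive muscle protein, had 0.12 (95% interval -0.05 to 0.29, adjusted p = 0.451). Tcap, telethonin, which caps titin at the Z-disc, had -0.02 (95% interval -0.28 to 0.23, adjusted p = 0.939), and its values were 0.18 in wild type and -0.23 in the knockout. Without Alox5ko_TAC 2, Mypn and Pdlim5 passed, at 0.23 (adjusted p = 0.042) and 0.37 (adjusted p = 0.00127).

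In the M-band, Myom1 encodes myomesin, the crosslinker of thick filaments and titin. Myom1 had 1707, 1863 and 1844 CPM in WT_NS against 2367, 2396 and 2406 CPM in WT_TAC. Its knockout values were 1809, 1875 and 1721 CPM in Alox5ko_NS against 2549, 1819 and 2424 CPM in Alox5ko_TAC. The wild-type groups did not overlap, and Alox5ko_TAC 2 was the 1 TAC library inside the NS range. Myom1 rose by 0.37 on the log2 scale (SE 0.069, 95% interval 0.22 to 0.51, adjusted p = 0.00405). Its relatives did not pass in the main edgeR test. Myom2 had 0.35 (95% interval 0.09 to 0.60, adjusted p = 0.125), and passed without Alox5ko_NS 2 at an adjusted p of 0.0142. DESeq2 called Myom2, and so did edgeR without the low-count filter. Myom3 was scarce, with 2.86, 3.24 and 2.87 CPM in WT_NS against 3.95, 3.65 and 3.48 CPM in WT_TAC. It had 3.18, 3.06 and 3.2 CPM in Alox5ko_NS against 3.69, 2.93 and 3.01 CPM in Alox5ko_TAC. At that level its groups overlapped in the knockout, and its value was 0.17 (95% interval -0.07 to 0.40, adjusted p = 0.453).

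The thick filament showed 1 call. Mybpc3 encodes cardiac myosin-binding protein C, which regulates crossbridge formation. Mybpc3 had 3045, 3200.1 and 3148 CPM in WT_NS against 3935, 4089.7 and 3675 CPM in WT_TAC. It had 3076, 3453 and 2613 CPM in Alox5ko_NS against 4401, 3280.4 and 3744 CPM in Alox5ko_TAC. The wild-type groups did not overlap, and Alox5ko_TAC 2 lay below Alox5ko_NS 2. Mybpc3 rose by 0.32 on the log2 scale (SE 0.0736, 95% interval 0.17 to 0.47, adjusted p = 0.0159). Myl2, the regulatory light chain of ventricular myosin, had 3595, 3594 and 3619 CPM in WT_NS against 3804, 3970.4 and 3826 CPM in WT_TAC. It had 3833, 4087 and 4046 CPM in Alox5ko_NS against 4091, 3312 and 3942 CPM in Alox5ko_TAC. The TAC libraries were higher in wild type, and the groups overlapped in the knockout. The Myl2 value was 0.01 (95% interval -0.11 to 0.13, adjusted p = 0.936). Myl3 had 0.03 (95% interval -0.10 to 0.16, adjusted p = 0.851).

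Titin varied within its groups. Ttn had 2901, 3291 and 3497 CPM in WT_NS against 3496, 4120.4 and 3994 CPM in WT_TAC. It had 3579.7, 4013 and 2446 CPM in Alox5ko_NS against 3722, 3604 and 4058 CPM in Alox5ko_TAC. WT_TAC 1 was just below WT_NS 3, and Alox5ko_NS 3 lay far below the other 2 libraries of its group. It was the lowest of its group for other genes too, among them Mybpc3, Actn2, Nrap, Flnc and Xirp1. For others it was the highest, among them Tnnc1, Tnni3, Csrp3 and Myoz2. Alox5ko_NS 3 also had the highest share of mitochondrially encoded counts, 21.42% against 18.2% and 18.67% in Alox5ko_NS 2 and 1. The part of this in the result was not tested.

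The thin filament held the genes with the narrowest intervals. Tnnt2 values spanned 39102 to 42224 CPM over all 12 libraries, and its fold change of 0.0015 had a 95% interval of -0.10 to 0.11. Tpm1 gave 0.05 (95% interval -0.06 to 0.16, adjusted p = 0.658). The cardiac actin gene Actc1 gave 0.04 (95% interval -0.10 to 0.17, adjusted p = 0.828). Actc1 has close paralogs among the muscle actins, and how reads that fit several of them were counted is not given in the sources used here. Lmod2, leiomodin, which elongates thin filaments, gave 0.12 (95% interval -0.02 to 0.26, adjusted p = 0.354), and Tmod1, tropomodulin, which caps their pointed ends, gave -0.01 (95% interval -0.12 to 0.10, adjusted p = 0.972). Tmod1 shares exons on the opposite strand with Tstd2, which had 43.5% as many counts.

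The extremes of the thin filament were troponin C and troponin I. Tnnc1, the calcium sensor, had 3825, 3966 and 3856 CPM in WT_NS against 5338, 4990.5 and 4797 CPM in WT_TAC. It had 3769, 3953 and 4452 CPM in Alox5ko_NS against 5645, 3594 and 4815 CPM in Alox5ko_TAC. The wild-type groups did not overlap, but Alox5ko_TAC 2 was the lowest of all 12 libraries. Tnnc1 gave 0.29 on the log2 scale (SE 0.0839, 95% interval 0.11 to 0.47, adjusted p = 0.0531). Without Alox5ko_TAC 2 it passed at 0.37 (adjusted p = 0.000927). Tnni3, the inhibitory subunit, had 5148, 4994 and 5289 CPM in WT_NS against 4786, 4994 and 5014 CPM in WT_TAC. It had 5225, 5299 and 5971 CPM in Alox5ko_NS against 5035, 4602 and 4874 CPM in Alox5ko_TAC. The knockout groups did not overlap and the wild-type groups overlapped. The Tnni3 value of -0.12 on the log2 scale (SE 0.0532, 95% interval -0.23 to -0.01, adjusted p = 0.205) was not called.

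Among the titin-associated genes, Trim54 encodes MuRF3, a muscle ring-finger protein at the Z-disc and microtubules (chromosome 5, 31116712 to 31137630). Trim54 had 488, 557 and 505 CPM in WT_NS against 703, 678 and 654 CPM in WT_TAC. It had 605, 597 and 563 CPM in Alox5ko_NS against 840.1, 750.0 and 717 CPM in Alox5ko_TAC. All TAC libraries were above all NS libraries. Trim54 rose by 0.39 on the log2 scale (SE 0.056, 95% interval 0.27 to 0.51, adjusted p = 0.000709). Exons of Trim54 overlap those of Gm15469 on the opposite strand, which had 24.4% as many counts and rose by 0.38 (adjusted p = 0.000741), so the genes are not taken as separate. The other muscle ring-finger genes, ubiquitin ligases of muscle protein turnover, were not called. Trim55 (MuRF2) had 0.10 (95% interval -0.02 to 0.22, adjusted p = 0.391) and Trim63 (MuRF1) had 0.17 (95% interval 0.03 to 0.32, adjusted p = 0.155).

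Fhl1 encodes a LIM protein that binds the titin spring. Fhl1 had 24.4, 20.4 and 20.7 CPM in WT_NS against 42, 25.5 and 30.5 CPM in WT_TAC. It had 25.2, 22.5 and 23 CPM in Alox5ko_NS against 37.5, 23.9 and 34.6 CPM in Alox5ko_TAC. The wild-type groups did not overlap, and Alox5ko_TAC 2 lay within the range of Alox5ko_NS. Fhl1 rose by 0.51 on the log2 scale (SE 0.131, 95% interval 0.22 to 0.80, adjusted p = 0.045), and without 1 library the call was kept only for WT_TAC 1, WT_TAC 2 and Alox5ko_TAC 2 (adjusted p up to 0.115 otherwise). Its relative Fhl2 had 390.0, 421 and 417 CPM in WT_NS against 411, 417 and 439 CPM in WT_TAC. It had 383, 384 and 451 CPM in Alox5ko_NS against 448, 362 and 399.8 CPM in Alox5ko_TAC. The groups overlapped in both genotypes, with a value of 0.02 (95% interval -0.11 to 0.14, adjusted p = 0.918). Fhl1 is also made outside muscle cells. Markers of activated fibroblasts, 7 of 8 tested, summed to 150 to 186.3 CPM in WT_NS and 181.3 to 446.8 CPM in WT_TAC, and to 89.57 to 113.9 CPM in Alox5ko_NS against 116.9 to 291.4 CPM in Alox5ko_TAC. The part of these cells in the result was not tested.

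Within a single genotype fewer genes passed. In WT_TAC against WT_NS 6 of the 37 genes were called, all of them higher, while 0.766% of all genes were called and 0.476% were called higher. They were Hspb7 at 0.70 (adjusted p = 0.00377), Trim54 at 0.39 (adjusted p = 0.03), Des at 0.55 (adjusted p = 0.0343), Nrap at 0.64 (adjusted p = 0.0384), Myot at 0.79 (adjusted p = 0.0396) and Actn2 at 0.46 (adjusted p = 0.0449). Hspb7 kept its call without any 1 of the 6 libraries. Actn2, Nrap and Des lost theirs whichever library was left out (adjusted p up to 0.204, 0.135 and 0.135). Myot kept it only without WT_NS 2 or WT_TAC 3, and Trim54 only without WT_NS 2 (adjusted p otherwise up to 0.162 and 0.14). At an unadjusted p under 0.05 stood 18 of the 37 genes and 1844 of all genes.

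In Alox5ko_TAC against Alox5ko_NS 4 of the 37 genes were called, all of them higher, while 1.34% of all genes were called and 0.733% were called higher. They were Myot at 1.08 (adjusted p = 0.00715), Hspb7 at 0.58 (adjusted p = 0.00715), Nrap at 0.80 (adjusted p = 0.00929) and Trim54 at 0.39 (adjusted p = 0.0211). Myot, Hspb7 and Nrap kept the call without any 1 library. Trim54 lost it without Alox5ko_NS 1, 2 or 3 or Alox5ko_TAC 1 (adjusted p up to 0.105). At an unadjusted p under 0.05 stood 22 of the 37 genes and 2252 of all genes.

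The 4 genes called in the knockout were all among the 6 called in wild type, so the overlap was 4 of 6 and 4 of 4. The comparisons share no library but take their spread from all 12. Signs were equal for 29 of 37 genes. Neither the overlap of calls nor equal signs were counted over all genes, so neither is read as particular to these genes. The other 11 genes called in the average passed in neither genotype alone. Counted without a model, all 3 TAC libraries exceeded all 3 NS libraries for 22 of 37 genes in wild type (10.1% of all genes) and for 12 in the knockout (8.98%). They lay below all NS libraries for 0 genes in wild type (8.81%) and for 2, Nebl and Tnni3, in the knockout (9.02%). In both genotypes 10 of 37 were higher without overlap, against 2.32% of all genes. These were Actn2, Ldb3, Myot, Nrap, Synpo2l, Flnc, Des, Cryab, Hspb7 and Trim54. None was lower in both, against 2.18% of all genes.

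**Figure D5:**
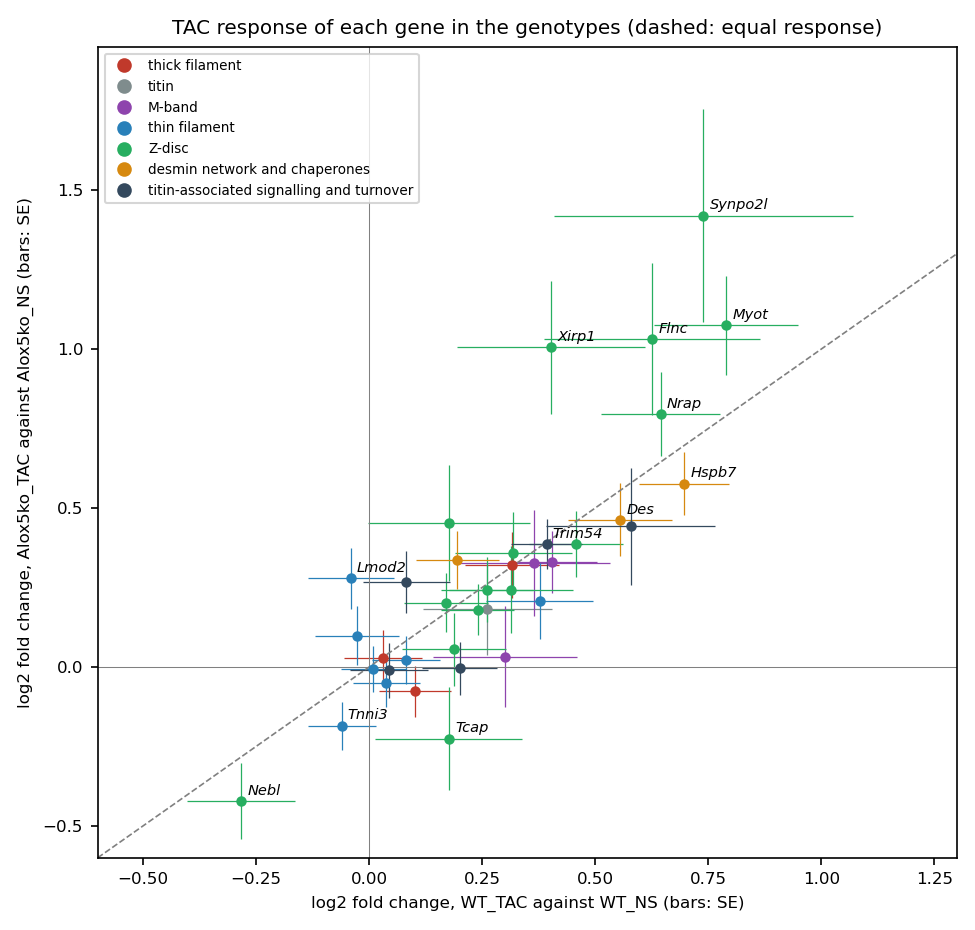
Log2 fold change of each of the 37 genes with TAC in the knockout (vertical) against wild type (horizontal), with SE bars, coloured by role; the dashed line marks equal responses. Synpo2l, Myot, Flnc and Xirp1 lie above the line, and no gene was called for the difference between genotypes.

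The library that stood apart, Alox5ko_TAC 2, had 13 of the 37 genes above all NS libraries of its genotype, against 30 in Alox5ko_TAC 1 and 23 in Alox5ko_TAC 3. The same count over all genes was not made, so these counts are not read as particular to the 37 genes. The sum of pressure-overload genes in Alox5ko_TAC 2 was also the lowest of the knockout TAC libraries, as given above. The part of this in the results was not tested. Without Alox5ko_TAC 2, 16 of the 37 genes were called in the knockout (2.39% of all genes) and 20 in the average (6.25% of all genes). Because the library was set apart by its low values in these genes, a rise in calls without it was built in. The 12 added in the knockout were Mybpc3, Myom1, Tnnc1, Actn2, Csrp3, Myoz2, Synpo2l, Pdlim5, Flnc, Xirp1, Des and Cryab, from 0.36 for Myoz2 to 1.72 for Synpo2l. The 3 added in the average were Tnnc1, Mypn and Pdlim5.

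The genotypes were then compared directly. In Alox5ko_TAC against WT_TAC 0 of the 37 genes passed in edgeR, while 0.109% of all genes were called (0.0772% higher and 0.0322% lower). An unadjusted p under 0.05 was seen for 6 of the 37 genes and 1320 of all genes. DESeq2 called 1 of the 37, Myot, and 0.342% of all genes. Myot had 80.1, 52.7 and 70.7 CPM in Alox5ko_TAC against 46, 49.1 and 38.1 CPM in WT_TAC, without overlap, and a value of 0.61 on the log2 scale (SE 0.154, 95% interval 0.28 to 0.94, adjusted p = 0.265). It passed without Alox5ko_TAC 2, at 0.76 (adjusted p = 0.0282). The 5 others were Lmod2 at 0.29 (95% interval 0.09 to 0.49, adjusted p = 0.349), Trim55 at -0.26 (95% interval -0.43 to -0.09, adjusted p = 0.339), Trim63 at 0.26 (95% interval 0.05 to 0.46, adjusted p = 0.441), Cryab at 0.21 (95% interval 0.02 to 0.41, adjusted p = 0.54) and Trim54 at 0.18 (95% interval 0.02 to 0.35, adjusted p = 0.547). The median over the 37 genes was -0.03, against -0.01 over all genes.

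Without TAC, in Alox5ko_NS against WT_NS, 0 of the 37 genes passed in edgeR or DESeq2, while 0.0386% of all genes were called (0.0129% higher and 0.0257% lower). An unadjusted p under 0.05 was seen for 988 of all genes and 1 of the 37, Trim54, with 0.19 (95% interval 0.02 to 0.35, adjusted p = 0.726). Alox5ko_NS had 605, 597 and 563 CPM against 488, 557 and 505 CPM in WT_NS, without overlap. Estimates over the 37 genes ran from -0.38 for Pdlim3 to 0.33 for Myot, with a median of 0.03.

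The difference between the TAC responses, Alox5ko minus WT, was tested as an interaction. For 0 of the 37 genes, and 0% of all genes, was it called by edgeR. At an unadjusted p under 0.05 stood 1 of the 37 and 836 of all genes, and DESeq2 called 0 of the 37. That 1 was Lmod2, with 0.32 (95% interval 0.04 to 0.60, adjusted p = 0.878). Its levels were 1433, 1898 and 1458 CPM in WT_NS against 1536, 1495 and 1624 CPM in WT_TAC, and 1506, 1691 and 1489 CPM in Alox5ko_NS against 1911, 1836 and 1936 CPM in Alox5ko_TAC. The 3 Alox5ko_TAC libraries were above all others except WT_NS 2. The largest estimates, Synpo2l with 0.68 (95% interval -0.38 to 1.75, adjusted p = 0.998) and Xirp1 with 0.60 (95% interval -0.05 to 1.26, adjusted p = 0.922), had wide intervals, with 3 libraries a group. For Tnnt2 the interval was -0.23 to 0.20, and for Hspb7 -0.41 to 0.17.

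Related genes of the myofibril outside the 37 were taken from a list of 60, of which 57 were tested. In TAC averaged over genotypes 11 rose and 1 fell, with a median of 0.18, while 5.1% of all genes were called (2.9% higher and 2.19% lower). Sorbs2, a Z-disc and intercalated disc adaptor, had 165, 213 and 198 CPM in WT_NS against 287, 287 and 254 CPM in WT_TAC. It had 165, 192 and 160.4 CPM in Alox5ko_NS against 279, 211 and 292 CPM in Alox5ko_TAC. It rose by 0.56 (adjusted p = 0.0013), with all TAC libraries above the NS libraries of their genotype. Xirp2, the larger relative of Xin, had 599.8, 883 and 660.4 CPM in WT_NS against 1459.6, 1335 and 1184 CPM in WT_TAC, and 728, 709 and 686 CPM in Alox5ko_NS against 1942, 1099 and 2012 CPM in Alox5ko_TAC. It rose by 1.07 (adjusted p = 0.00548). Alpk3, an alpha-kinase of heart muscle, rose by 0.33 (adjusted p = 0.00424). The 1 that fell was Mylk3, the kinase of the ventricular regulatory light chain. Mylk3 had 563, 505 and 553 CPM in WT_NS against 390.3, 426 and 445 CPM in WT_TAC. It had 579, 569.7 and 565 CPM in Alox5ko_NS against 404, 511 and 438 CPM in Alox5ko_TAC. Every TAC library was below every NS library of its genotype, and its value was -0.35 (adjusted p = 0.0025). In the knockout alone Xirp2, at 1.25 (adjusted p = 0.0313), and Sorbs2, at 0.60 (adjusted p = 0.0229), passed, against 1.34% of all genes. In wild type 0 of 57 passed in edgeR, against 0.766% of all genes. An unadjusted p under 0.05 was seen for 21 of the 57 and 1844 of all 15542 genes, and DESeq2 called 9 of the 57 and 1.92% of all genes.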

How the data were processed

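Polyadenylated RNA of 12 left ventricle libraries was sequenced as 150-bp read pairs, per the labels' protocols. The authors deposited raw counts per gene symbol and RPKM values. Recomputing RPKM from counts, deposited lengths and totals gave values equal within 0.1% for 336840 of 336840. Per the submitters' processing notes HISAT2, DESeq2 and the builds GRCh38 and mm10 (GRCm38) were used, with no versions. The counting program, annotation and strand setting are not given in the sources used here. Positions are those of the deposited table, and 35 of 37 were identical in GENCODE for GRCm38 (Myom1 and Ldb3 differed).

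Counts were tested with edgeR 4.0.16 (quasi-likelihood F test, TMM, robust; limma 3.58.1, R 4.3.3) with 1 coefficient per group on all 12 libraries. The filter filterByExpr (minimum count 10, minimum total 15) left 15542 genes. In each of 6 comparisons the Benjamini-Hochberg adjustment ran over all of these, with calls made under an adjusted p of 0.05. All adjusted p-values are from this edgeR test unless DESeq2 1.42.0 is named. Common dispersion corresponded to a biological coefficient of variation of 0.107. Intervals are 95% intervals from the quasi-likelihood standard error. Levels are CPM, and sums and per-library medians use CPM too. An exact permutation test of 3 against 3 cannot go below 0.1 and was not used. No library was a duplicate: within groups, chi-square divided by the number of genes ran from 5.24 to 30.9. The procedure was also run on simulated counts, with genes changed in WT_TAC only and tested in WT_TAC against WT_NS. No library stood apart in them. That run therefore does not bear on the averaged comparison or on calls that turn on single libraries.

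Alternatives were DESeq2, RLE size factors, TMM factors without the 37, related and mitochondrial genes, no low-count filter, a replicate block, the 6 compared libraries alone, and leaving out each library. Per-library values are given for each gene called in any comparison and for the highest and lowest in each role of 3 or more genes. Up to 4 called related genes per comparison, those with the smallest adjusted p, are named. The members and lists were chosen with earlier results of these data known. Promoter sequences are from RefSeq (GRCm38.p6), and Myom2, Tcap, Myot, Xirp1, Cryab and Trim55 had no entry matched.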

Additional observations from a re-analysis of the deposited data

How the results depend on the processing

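None of the 37 genes had a reversed call under any setting run; related and overlapping genes were not followed gene by gene. With TAC averaged over genotypes, calls among the 37 genes were 17, and 16 with RLE size factors, 17 with TMM factors computed without the 37, related and mitochondrial genes, 21 without the low-count filter, 19 with DESeq2 and 8 to 20 with 1 library left out. Over all genes these calls were 792, 775 with RLE size factors and 788 with those TMM factors. They were 1331 without the filter, 949 with DESeq2 and 407 to 990 with 1 library left out. In WT_TAC against WT_NS the 6 calls became 13 without the filter, 10 with only the 6 libraries compared, 8 with DESeq2 and 1 to 3 with 1 library left out. The 119 over all genes became 538, 215, 288 with DESeq2, and 17 to 95. In Alox5ko_TAC against Alox5ko_NS the 4 calls became 13 without the filter, 11 with DESeq2 and 3 to 16 with 1 library left out, the 16 being without Alox5ko_TAC 2. The 209 over all genes became 756, 401 and 60 to 379. In Alox5ko_TAC against WT_TAC the 0 calls became 2 without the filter (Lmod2 and Myot), 1 with DESeq2 and 0 to 1 with 1 library left out. The 17 over all genes became 252, 55, 39 with only the 6 libraries compared, and 10 to 27. In Alox5ko_NS against WT_NS none of the 37 was called under any setting, and the 6 over all genes became 116 without the filter, 23 with DESeq2, 18 with only the 6 libraries compared and 2 to 7 with 1 library left out. The interaction gave 0 calls among the 37 under every setting, and over all genes 83 without the filter, 1 with DESeq2 and 0 to 1 with 1 library left out. The causes of these shifts were not tested.

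Libraries with the same replicate number did not deviate together (r from -0.105 to 0.092 over 12 pairs, 0 above 0.1), so the numbers are not taken to pair the samples. A replicate block gave 4, 5 and 13 calls among the 37 in wild type, in the knockout and in the average, and 0 in the 3 other comparisons. With the block, Actn2, Myot and Nrap were not called in wild type (adjusted p = 0.0608, 0.0772 and 0.0589) and Fhl1 was called there. In the average Ldb3, Csrp3, Myoz2 and Synpo2l were not called (adjusted p = 0.0536, 0.0548, 0.0627 and 0.0691). Over all genes it gave 110, 170 and 773 calls in these, 21 in Alox5ko_TAC against WT_TAC, 6 in Alox5ko_NS against WT_NS and 0 for the interaction. RLE factors left Myoz2 uncalled in the average (adjusted p = 0.0529), and the 6 compared libraries alone left Trim54 uncalled in the knockout (adjusted p = 0.0667).

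With 3 libraries a group, the 95% interval of the interaction spanned -0.38 to 1.75 on the log2 scale for Synpo2l, which limits what can be said of genotype differences. The median log2 fold change of all genes in wild type was 0.0046 with TMM and 0.0019 with RLE factors.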
